A study of Mus musculus with 6 samples.

Results

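The genes described here are 42 genes of fatty acid, triglyceride and cholesterol synthesis, measured in the dorsal skin of 6 mice of which 3 were *Bmal1*+/- and 3 were *Bmal1*-/-. They were chosen by name from knowledge of these pathways, with earlier results of these data known, and each was found through the annotation of the array, which paired all 42 with at least 1 probe set of their own. The 42 genes hold 46 of the 23410 probe sets tested, and 42 of the 19938 genes. Where a gene had 2 probe sets (*Acaca*, *Me1*, *Idi1* and *Fdft1*), it is represented by the probe set of higher mean intensity. For description they were split by role into 8 genes of acetyl-CoA supply and fatty acid synthesis, 9 elongases and desaturases, 7 genes of triglyceride assembly, 13 of the mevalonate and sterol pathway and 5 regulators.

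The *Bmal1*-/- mice carry no functional copy of *Bmal1* (*Arntl*), a transcription factor of the circadian clock, and the controls are *Bmal1*+/- littermates, so every mouse carries at least 1 mutant allele and no wild-type mouse is included. Both genotypes are on a C57BL/6J background and were sampled at postnatal day 22, although for *Bmal1*+/- replicate 1 the labels give day 23 in another place. Hair follicles were at rest, in telogen, in all 6 skins. *Bmal1*+/- replicate 1 is male and the other 5 mice are female, so that sex is unequal between the genotypes. The study's methods give an afternoon window of collection for its wild-type time course, and do not state whether it holds for these mice. Each RNA was hybridised separately to a whole-transcript Affymetrix array. Values are deposited probe set intensities on a linear scale, and values of single mice are given in the order of replicates 1, 2 and 3 of each genotype, numbers that carry no order or pairing. The median intensity of an array lay between 219 and 235.5. Whole skin holds epidermis, follicles, sebaceous glands, dermis, fat and a sheet of striated muscle, and in such bulk samples fewer cells of a type and less RNA per cell cannot be told apart. The 7 keratinocyte markers measured had a summed intensity of 43513 to 50613 in the 6 mice, and 3 hepatocyte genes, which skin should lack, 572 to 655. *Nr1d1*, a clock gene activated by BMAL1, had 1893, 1879.7 and 1561 in *Bmal1*+/- skin against 204, 145 and 237 in *Bmal1*-/- skin, while *Arntl* itself had 325, 365 and 355 against 569, 609.8 and 664, from probes that may lie outside the deletion, so that its level does not check the genotypes. No batch is labelled.

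Cells make fatty acids from acetyl-CoA, which citrate carries out of the mitochondrion, and build cholesterol from the same precursor by way of mevalonate. Transcription of these enzymes is driven largely by the SREBP factors, encoded by *Srebf1* and *Srebf2* and held back by the INSIG proteins, and that of the fatty acid enzymes also by ChREBP, encoded by *Mlxipl*. In skin these lipids fill the adipocytes of the dermis, form sebum and make up the barrier of the epidermis.

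*Fasn*, *Acly*, *Slc25a1* and *Thrsp* were taken as examples, being among the genes whose levels differed most from mouse to mouse. *Hmgcs1* was taken as a gene whose level hardly did, and *Dhcr7* as the listed gene of lowest limma p between genotypes. The sequences upstream of these 6 genes are shown, and their part in these levels was not tested. They are the 250 bases before the RefSeq start of transcription in GRCm38.p6, written 5′ to 3′ on the strand of the gene, with capitals for matches on either strand to the letters CACGTG (the E-box), CACGTT (an E′-box), TCACNCCAC (a sterol response element), CCAAT (the NF-Y box) or ANTAGGTCA (a site of ROR and REV-ERB receptors). The *Fasn* sequence is chr11:120824548-120824797, minus strand, that of *Acly* chr11:100528001-100528250, minus strand, that of *Slc25a1* chr16:17928220-17928469, minus strand, that of *Thrsp* chr7:97417551-97417800, minus strand, that of *Hmgcs1* chr13:119690101-119690350, plus strand, and that of *Dhcr7*, the last of its 3 starts and the one with matches to CCAAT, chr7:143829964-143830213, plus strand.
Fasn: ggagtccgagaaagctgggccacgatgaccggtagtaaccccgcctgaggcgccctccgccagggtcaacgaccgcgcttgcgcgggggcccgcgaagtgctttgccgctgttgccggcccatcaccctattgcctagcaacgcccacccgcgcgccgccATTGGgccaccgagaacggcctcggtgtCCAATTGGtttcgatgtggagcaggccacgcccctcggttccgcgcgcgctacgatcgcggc
Acly: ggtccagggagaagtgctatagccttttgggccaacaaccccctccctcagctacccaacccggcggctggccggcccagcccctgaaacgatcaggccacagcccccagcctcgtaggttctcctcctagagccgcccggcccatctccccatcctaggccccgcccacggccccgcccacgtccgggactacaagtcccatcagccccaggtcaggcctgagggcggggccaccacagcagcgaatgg
Slc25a1: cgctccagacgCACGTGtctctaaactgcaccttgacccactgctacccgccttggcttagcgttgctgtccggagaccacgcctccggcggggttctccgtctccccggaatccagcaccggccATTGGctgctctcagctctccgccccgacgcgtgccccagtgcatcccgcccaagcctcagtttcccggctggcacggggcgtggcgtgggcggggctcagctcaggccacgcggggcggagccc
Thrsp: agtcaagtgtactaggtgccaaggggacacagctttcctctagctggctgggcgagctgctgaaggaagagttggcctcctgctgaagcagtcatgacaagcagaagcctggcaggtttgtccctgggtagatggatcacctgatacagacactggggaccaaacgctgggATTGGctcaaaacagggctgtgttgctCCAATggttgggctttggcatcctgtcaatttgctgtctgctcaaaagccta
Hmgcs1: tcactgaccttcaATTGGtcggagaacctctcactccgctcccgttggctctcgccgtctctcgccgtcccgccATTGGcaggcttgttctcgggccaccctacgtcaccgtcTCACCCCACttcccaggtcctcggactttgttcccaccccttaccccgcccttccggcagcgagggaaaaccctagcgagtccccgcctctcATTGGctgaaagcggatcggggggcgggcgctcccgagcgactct
Dhcr7: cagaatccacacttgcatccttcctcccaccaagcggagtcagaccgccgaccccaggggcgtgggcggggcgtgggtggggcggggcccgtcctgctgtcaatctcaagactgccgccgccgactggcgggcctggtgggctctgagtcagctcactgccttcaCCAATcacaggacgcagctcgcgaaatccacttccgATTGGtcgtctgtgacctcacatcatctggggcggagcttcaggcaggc

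RefSeq promoter windows, of 250 bases before the start and 50 after it, were at hand for 33 of the 42 genes, and a gene with several starts was counted as holding a motif where any of its windows did. The NF-Y box was found for 28 of the 33 genes (84.8%), against 41.1% of the 27025 genes with such windows. It was found for all 10 sterol genes that had a window and for 7 of the 8 genes of acetyl-CoA supply and fatty acid synthesis. In the *Fasn* sequence 2 of its 3 matches overlap, and the match of *Acly* and 1 further match each of *Slc25a1* and *Hmgcs1* lie after the start, outside the printed bases. The E-box was found for 8 genes (24.2%, against 8.09% of all genes), namely *Slc25a1*, *Elovl4*, *Elovl5*, *Sc5d*, *Hsd17b7*, *Dhcr7*, *Insig1* and *Mlxipl*. For *Dhcr7* and *Mlxipl* it was at 1 of several starts, which for *Dhcr7* is not the start printed. The sterol element was found for *Hmgcs1* and for 1 start of *Mlxipl* (6.06%, against 1.44%), the E′-box for *Acacb*, *Elovl4* and *Elovl6* (9.09%, against 5.44%), and the ROR and REV-ERB site for no listed gene (0 of 33, against 0.707%). These are matches of letters in a short window, not shown to be bound in these samples.

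None of the 42 genes passed an adjusted p of 0.05 in either direction, where 54 of the 23410 probe sets tested (0.231%) did, 31 lower (0.132%) and 23 higher (0.0982%) in *Bmal1*-/- skin by limma with Benjamini-Hochberg adjustment over all of them. At an unadjusted p under 0.001 from limma, again no listed gene passed, against 0.649% of the probe sets, 0.397% lower and 0.252% higher. The study applied that cutoff to Cyber-T, and the Cyber-T type test was not counted at it here. At an unadjusted p under 0.05 from limma, 6 genes were higher in *Bmal1*-/- skin (*Dhcr7*, *Lpin1*, *Sc5d*, *Dgat1*, *Elovl6* and *Thrsp*) and 1 was lower (*Idi1*), against 8.77% over all probe sets, 4.17% higher and 4.60% lower. In 6 genes the genotypes did not overlap, 4 higher (*Elovl6*, *Dgat1*, *Mogat1* and *Dhcr7*) and 2 lower in *Bmal1*-/- skin (*Idi1* and *Fdft1*), a share near the background of 14.7%, 6.99% higher and 7.68% lower. Log2 fold changes of *Bmal1*-/- over *Bmal1*+/- ran from -0.22 for *Lss* to 0.77 for *Thrsp*, with a median of 0.058 over the 42 genes beside 0.014 over all tested probe sets. The group medians were 0.18 for acetyl-CoA supply and fatty acid synthesis, -0.034 for elongases and desaturases, 0.27 for triglyceride assembly, -0.079 for the sterol pathway and 0.10 for the regulators. By genotype, then, none of the 42 genes was called, and the adjusted p of a listed gene was at lowest 0.051 in any of the 17 other fits (*Lpin1*, in the Cyber-T type test).

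**Figure D1:**
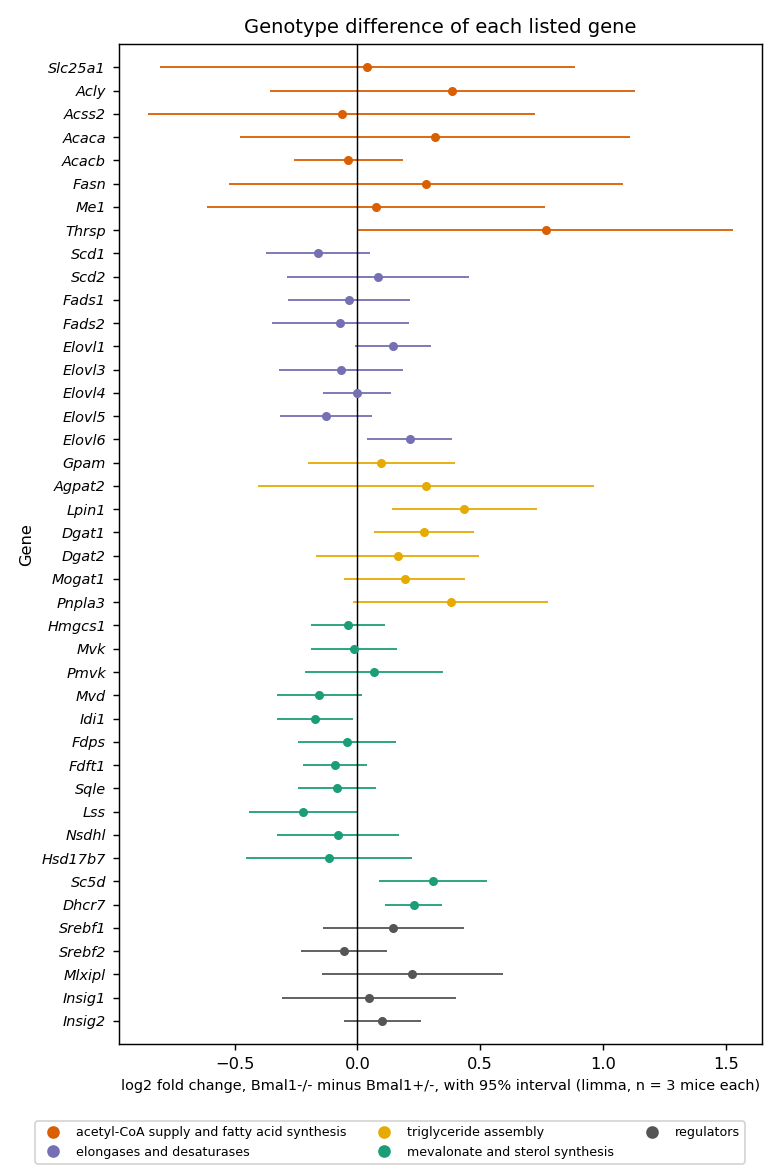
Log2 fold change of *Bmal1*-/- over *Bmal1*+/- skin (horizontal axis, on log2(intensity + 16)) for each of the 42 genes, with its 95% interval from limma (n = 3 mice each), coloured by group. The intervals of *Acly*, *Acaca*, *Fasn*, *Slc25a1*, *Acss2* and *Me1* are wide and cross 0, and that of *Dhcr7* is narrow, 0.11 to 0.35.

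For fatty acid synthesis, mice of a genotype differed more than the means of the genotypes did. Of the 8 genes that supply acetyl-CoA and NADPH and build palmitate, 7 were high in the same mice and low in the same mice of each genotype, with the highest of the 6 mice at least 2.35 times the lowest. *Acly*, the ATP-citrate lyase that splits cytosolic citrate into acetyl-CoA, had intensities of 3335, 4681 and 2400.2 in *Bmal1*+/- skin against 7581, 3965 and 2796 in *Bmal1*-/- skin. Its highest mouse of either genotype was replicate 2 of *Bmal1*+/- and replicate 1 of *Bmal1*-/-, and its lowest was replicate 3 of each.

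*Fasn*, the fatty acid synthase, showed the same order, with 5102, 6784 and 3015 in *Bmal1*+/- skin against 9625, 5584 and 3475 in *Bmal1*-/- skin. *Acaca*, the acetyl-CoA carboxylase that makes malonyl-CoA for it, had 2746, 3926 and 1783 in *Bmal1*+/- skin against 5922, 2900.3 and 2164 in *Bmal1*-/- skin, and its second probe set, with 1714, 2748 and 1028 against 4476, 2047 and 1306, gave the same order of mice. In each of these enzymes the groups overlapped, since *Bmal1*+/- replicate 2 lay above *Bmal1*-/- replicates 2 and 3. The citrate carrier *Slc25a1* had 1687, 2354 and 1092 in *Bmal1*+/- skin against 3173, 1451 and 1023 in *Bmal1*-/- skin. *Acss2*, which makes acetyl-CoA from acetate, had 1349, 2160.3 and 888 in *Bmal1*+/- skin against 2174, 1228 and 847 in *Bmal1*-/- skin. For both the lowest of all 6 mice was *Bmal1*-/- replicate 3.

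*Me1*, the malic enzyme that yields NADPH for the synthase, had 4680.0, 7279.6 and 3730.1 in *Bmal1*+/- skin against 8783, 4465 and 3791 in *Bmal1*-/- skin, and its second probe set kept this order. *Thrsp*, which encodes the lipogenic protein Spot 14, spanned a wide range, with 1454, 2783 and 1153 in *Bmal1*+/- skin against 4606, 2551 and 1991 in *Bmal1*-/- skin. Replicates 1 and 3 of *Bmal1*+/- lay below all 3 *Bmal1*-/- mice, and *Bmal1*+/- replicate 2 lay above *Bmal1*-/- replicates 2 and 3. *Acacb* was the exception. This isoform of the carboxylase, whose malonyl-CoA acts on mitochondrial fatty acid entry, had 1325, 1491 and 1239 in *Bmal1*+/- skin against 1355, 1142 and 1463 in *Bmal1*-/- skin, and *Bmal1*-/- replicate 1 was not its highest mouse.

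**Figure D2:**
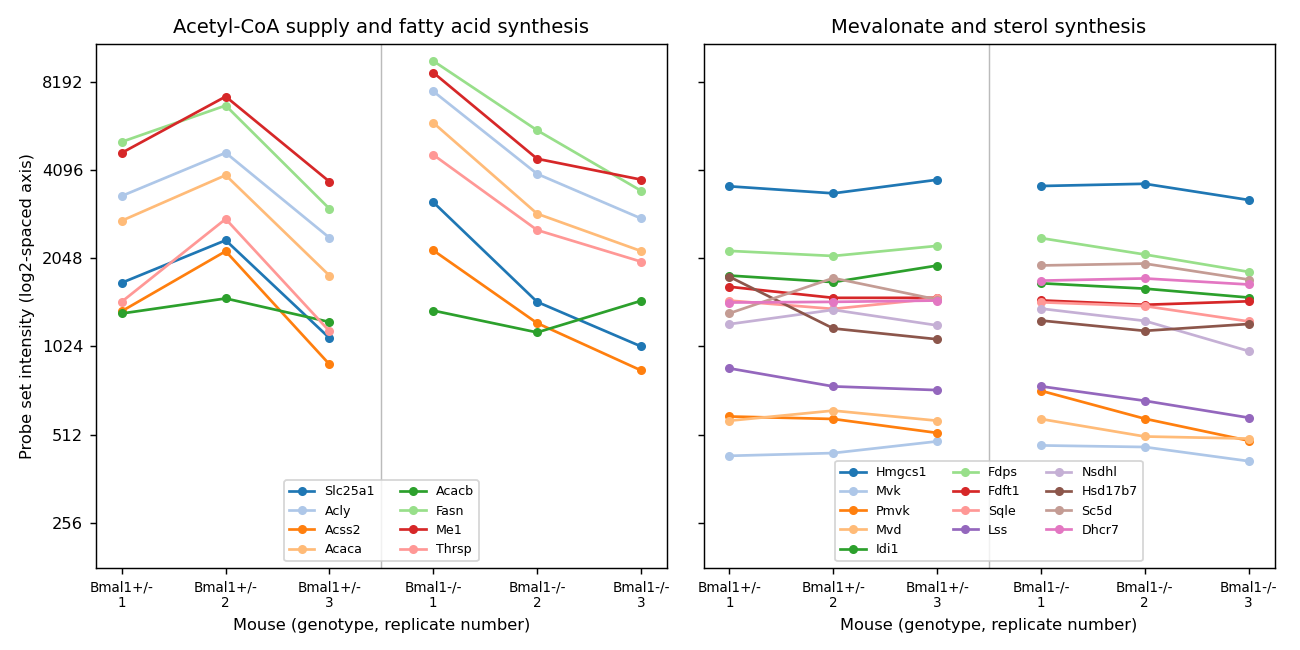
Probe set intensity (vertical axes, log2-spaced and shared) in each mouse of the genes of acetyl-CoA supply and fatty acid synthesis (left) and of mevalonate and sterol synthesis (right). Lines join the values of a gene within a genotype and imply no order of mice. On the left 7 of 8 genes peak in *Bmal1*+/- replicate 2 and *Bmal1*-/- replicate 1 and are lowest in replicate 3 of their genotype. The lines on the right are flatter than those of these 7, with *Hsd17b7* ranging most, 1.63-fold.

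This order of mice, replicates 2, 1 and 3 from high to low in *Bmal1*+/- and 1, 2 and 3 in *Bmal1*-/-, was noticed only after the values were seen and is given as a description. It was present in 7 of the 8 genes of acetyl-CoA supply and fatty acid synthesis, in 2 of the 7 genes of triglyceride assembly (*Agpat2* and *Dgat2*), in 2 of the 5 regulators (*Srebf1* and *Insig1*), in 1 of the 13 sterol genes (*Nsdhl*) and in 1 of the 9 elongases and desaturases (*Fads2*). In all it was found in 13 of the 42 genes (31%), and in 490 of the 23410 probe sets (2.09%). Within *Bmal1*-/- alone, the order 1, 2 and 3 was more widespread, in 25 of the 42 genes (59.5%), among them 8 of the 13 sterol genes and 5 of the 9 elongases and desaturases, beside 15.4% of all probe sets. Within *Bmal1*+/- alone, the order 2, 1 and 3 was found in 19 of the 42 genes (45.2%), beside 12.6% of all probe sets. It was found in all 8 genes of acetyl-CoA supply and fatty acid synthesis and 6 of the 7 of triglyceride assembly. Of the sterol genes 1 of 13 had it, and of the elongases and desaturases 2 of 9. The highest of the 6 mice was *Bmal1*-/- replicate 1 for 23 of the 42 genes (54.8%, against 14% of all probe sets). The SD within a genotype, pooled over both, was 0.57 to 0.70 on the log2(intensity + 16) scale for the 7 genes, which placed each of them at percentile 99.70 or higher of all tested probe sets. For *Acacb* it was 0.16, and the median over all probe sets was 0.11.

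**Figure D3:**
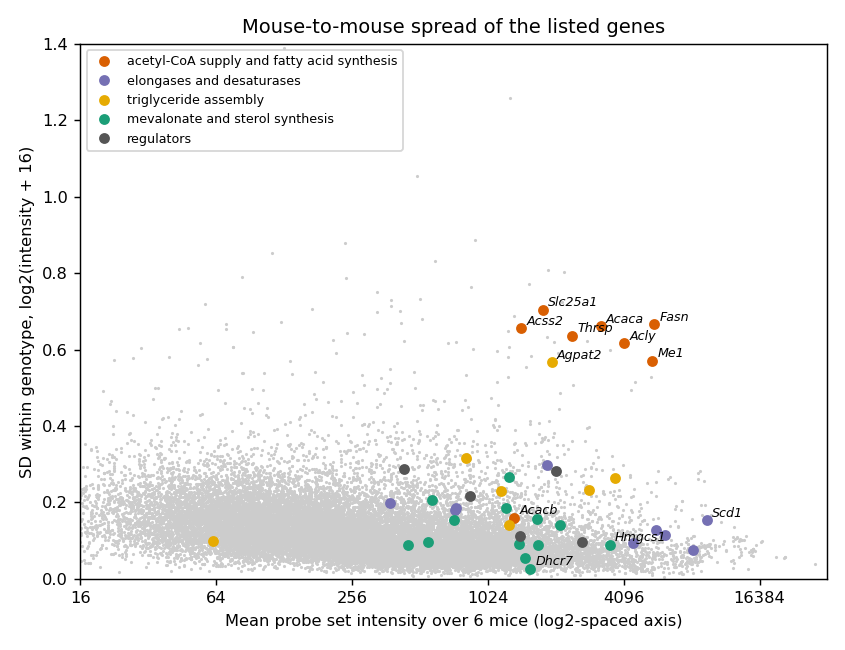
SD within genotype of log2(intensity + 16) (vertical axis) against mean intensity over the 6 mice (horizontal axis, log2-spaced) for all tested probe sets (grey) and the 42 genes (coloured by group). *Slc25a1*, *Acss2*, *Acaca*, *Fasn*, *Thrsp*, *Acly*, *Me1* and *Agpat2* lie between 0.57 and 0.70, apart from the sterol genes, of which *Dhcr7* is lowest at 0.026.

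The sign of the genotype difference of most of these enzymes rested on single mice. *Acly* had means of 3472 ± 1147 and 4781 ± 2495 (n = 3 mice, SD), with a log2 fold change of 0.39 ± 0.33 (SE; limma adjusted p = 0.78) and a 95% interval of -0.35 to 1.13. For *Fasn* the means were 4967 ± 1888 and 6228 ± 3125, with a log2 fold change of 0.28 ± 0.36 (SE; limma adjusted p = 0.86) and an interval of -0.52 to 1.08. Without *Bmal1*-/- replicate 1 the log2 fold changes were -0.0075 for *Acly*, -0.096 for *Fasn*, -0.096 for *Acaca*, -0.29 for *Me1* and -0.42 for *Slc25a1*, against 0.39, 0.28, 0.32, 0.075 and 0.040 with it. *Acss2* went from -0.064 to 0.26 without *Bmal1*+/- replicate 2. *Thrsp*, with means of 1797 ± 868 and 3049 ± 1377, had a log2 fold change of 0.77 ± 0.34 (SE; limma adjusted p = 0.57), and kept its sign without that *Bmal1*-/- mouse (0.43).

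Levels of cell type markers were compared over the same mice. The 11 adipocyte markers measured had a summed intensity of 36776, 39911 and 36789 in *Bmal1*+/- skin against 39734, 36357 and 42696 in *Bmal1*-/- skin, so that *Bmal1*-/- replicate 1 lay within the range of the other mice. A large part of this sum is *Car3*, a carbonic anhydrase of fat and muscle, which was nearly level. As a mean over the 11 genes of the log2(intensity + 16) difference from each gene's own mean, the markers stood at -0.015, 0.082 and -0.096 in *Bmal1*+/- skin against -0.12, -0.072 and 0.22 in *Bmal1*-/- skin. This mean followed the order of the fatty acid synthase in *Bmal1*+/- but was lowest of all 6 mice in *Bmal1*-/- replicate 1. Its low value there rested largely on 1 gene, *Lep*, at 86.3 in that mouse and 467 or more in the others. *Adipoq*, the adipocyte hormone adiponectin, had 2694, 2672 and 2384 against 2745, 2460.1 and 3067, and no marker was at 0. The 11 sebocyte markers summed to 25442, 24835 and 26894 in *Bmal1*+/- skin against 23150.4, 26775 and 25188 in *Bmal1*-/- skin, lowest in *Bmal1*-/- replicate 1. The 7 striated muscle markers summed to 55649.8, 72783 and 62297 in *Bmal1*+/- skin against 62627, 58400.4 and 66155 in *Bmal1*-/- skin, highest in *Bmal1*+/- replicate 2. Single adipocyte genes did differ by mouse. *Retn*, the adipocyte hormone resistin, had 1858, 2295 and 1248 against 3589, 1984 and 1833, the full order of the fatty acid synthase over a 2.88-fold range. *Plin1*, which coats the lipid droplet, had 1704, 1778 and 1389.9 against 2311, 1644 and 1852, highest in *Bmal1*-/- replicate 1 and lowest in *Bmal1*+/- replicate 3. *Lep*, leptin, had 675, 584 and 493 against 86.3, 467 and 689, lowest in *Bmal1*-/- replicate 1. Summed intensities of 5 brown adipocyte, 6 fibroblast and 6 immune cell markers were 2409 to 4069, 61786 to 74248 and 5271 to 7049, the last of these lowest in *Bmal1*-/- replicate 1 and at 6701 or more in the other mice. The part of cell composition in the order of mice was not tested.

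Of the 9 listed elongases and desaturases, *Fads2* alone followed the order of the fatty acid synthase in both genotypes. *Scd1*, the stearoyl-CoA desaturase of sebaceous glands and fat, had intensities of 9643, 11636 and 9087 in *Bmal1*+/- skin against 9270.4, 9535 and 8235 in *Bmal1*-/- skin, a range of 1.41-fold over mice in which *Fasn* ranged 3.19-fold. *Scd2*, its paralog, had 2137, 1833 and 1447 in *Bmal1*+/- skin against 2257, 2027 and 1481 in *Bmal1*-/- skin. Replicate 3 was the lowest of its genotype for both, whereas *Bmal1*-/- replicate 1 was the highest mouse for *Scd2* but not for *Scd1*. Log2 fold changes were -0.16 for *Scd1* and 0.085 for *Scd2* (adjusted p = 0.67 and 0.91 from limma). Related *Scd* genes are close in sequence, and whether their probes cross-hybridise was not tested.

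*Elovl6*, which lengthens palmitate to stearate, had 5319.9, 5501 and 6564 in *Bmal1*+/- skin against 6776, 6659.6 and 6639 in *Bmal1*-/- skin. All 3 *Bmal1*-/- mice lay above all *Bmal1*+/- mice, but *Bmal1*+/- replicate 3 reached nearly their level. It had a log2 fold change of 0.21 ± 0.077 (SE; limma adjusted p = 0.46), with an interval of 0.039 to 0.39. *Elovl3*, an elongase of very long chains in sebaceous glands and brown fat, had 784, 763 and 714 in *Bmal1*+/- skin against 879, 674 and 626 in *Bmal1*-/- skin, with groups that overlapped and a log2 fold change of -0.066 ± 0.11 (SE; limma adjusted p = 0.90). *Elovl4*, which makes the ultra-long acyl chains of barrier ceramides, had means of 8345 ± 405 and 8338 ± 460.5 and a log2 fold change of -0.0017, with an interval of -0.14 to 0.14. *Elovl1*, of saturated very long chains, had 4291 ± 327 and 4746 ± 255 (0.15, adjusted p = 0.59), and *Elovl5*, of polyunsaturated chains, 5949 ± 262 and 5468 ± 624 (-0.13, adjusted p = 0.69 from limma). The desaturases of polyunsaturated fatty acids, *Fads1* and *Fads2*, had log2 fold changes of -0.034 and -0.069 and SDs within genotype of 0.18 and 0.20. Of the 9 genes of this group, 6 were lower and 3 higher in *Bmal1*-/- skin, beside 10599 lower and 12811 higher of all tested probe sets. None passed the test.

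All 7 genes of triglyceride assembly, the dim *Mogat1* included, had a positive log2 fold change in *Bmal1*-/- skin, none of them called. Over all tested probe sets 12811 of 23410 were positive. The 7 genes were measured in the same mice, and *Bmal1*-/- replicate 1 was the highest mouse for 6 of them. *Lpin1*, the phosphatidate phosphatase lipin 1, had 909, 1213 and 857 in *Bmal1*+/- skin against 1427, 1145 and 1450.4 in *Bmal1*-/- skin. *Bmal1*-/- replicate 2 lay below *Bmal1*+/- replicate 2, so the groups overlapped. Its means were 993 ± 192 and 1341 ± 170.1 (n = 3 mice, SD), with a log2 fold change of 0.44 ± 0.13 (SE; limma adjusted p = 0.37) and an interval of 0.14 to 0.73. *Dgat1*, which adds the last acyl chain to make triglyceride, had 1199, 1212 and 1029 in *Bmal1*+/- skin against 1565, 1299 and 1304 in *Bmal1*-/- skin, and its groups did not overlap. It had a log2 fold change of 0.27 ± 0.091 (SE; limma adjusted p = 0.42). *Dgat2*, which catalyses the same step but is unrelated in sequence, had 3439, 4072 and 3065 in *Bmal1*+/- skin against 5025, 3599 and 3339.8 in *Bmal1*-/- skin, with overlap and a log2 fold change of 0.16 ± 0.15 (SE; limma adjusted p = 0.79).

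*Mogat1*, a monoacylglycerol acyltransferase, was dim, with 54.0, 58.4 and 57.4 in *Bmal1*+/- skin against 72.6, 58.7 and 70.2 in *Bmal1*-/- skin, lower in mean than each of the 3 hepatocyte genes. Its groups did not overlap, although *Bmal1*+/- replicate 2 and *Bmal1*-/- replicate 2 were nearly equal, but these values are not shown to lie above background and no fold is given. *Pnpla3*, adiponutrin, a lipase-family protein induced with lipogenesis, had 678, 835 and 599 in *Bmal1*+/- skin against 1241, 773 and 790.4 in *Bmal1*-/- skin. *Bmal1*-/- replicate 1 stood above the other mice, and *Bmal1*+/- replicate 2 lay above the other *Bmal1*-/- mice. *Agpat2*, which acylates lysophosphatidic acid in adipocytes, followed the order of the fatty acid synthase, with 1595, 2489 and 1189 in *Bmal1*+/- skin against 3299.7, 1678 and 1536 in *Bmal1*-/- skin. *Gpam*, the mitochondrial glycerol-3-phosphate acyltransferase, had means of 2769 ± 259.6 and 3001 ± 661 and a log2 fold change of 0.098 (adjusted p = 0.87 from limma). Without *Bmal1*-/- replicate 1, *Gpam*, *Agpat2* and *Dgat2* turned to -0.075, -0.063 and -0.014.

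**Figure D4:**
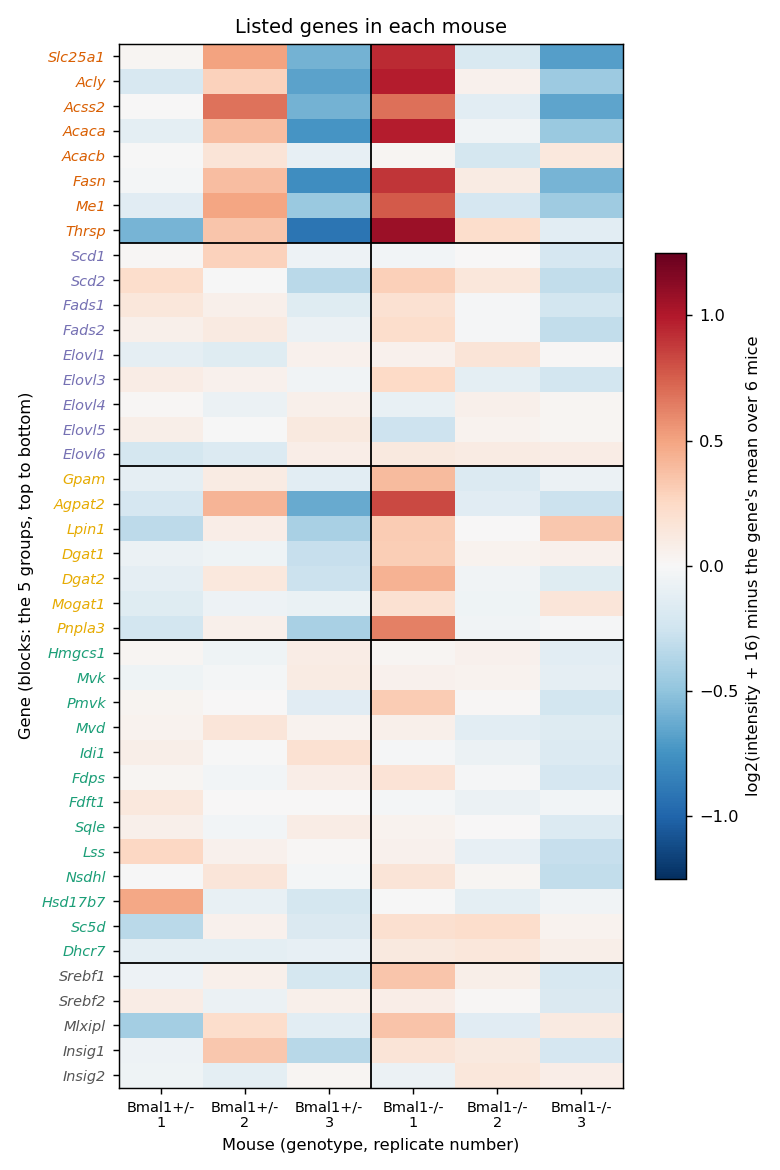
Colour gives log2(intensity + 16) of a gene in a mouse minus its mean over the 6 mice. Rows are the 42 genes in blocks for acetyl-CoA supply and fatty acid synthesis, elongases and desaturases, triglyceride assembly, sterol synthesis and regulators, and columns are mice. *Bmal1*+/- replicate 2 and *Bmal1*-/- replicate 1 are red and replicate 3 of each genotype is blue for most of the top block and for *Agpat2*, and the sterol block is paler.

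Single genes of the sterol pathway varied from mouse to mouse about as much as a typical probe set. Over its 13 genes the median SD within genotype was 0.095 on the log2(intensity + 16) scale, beside 0.11 over all tested probe sets. It was 0.15 over the elongases and desaturases and 0.65 over the 8 genes of acetyl-CoA supply and fatty acid synthesis. *Hsd17b7* (0.27), *Pmvk* (0.21) and *Nsdhl* (0.19) had the largest SDs of the 13. As means over each group's genes the sterol genes and the elongases and desaturases had SDs within genotype of 0.082 and 0.081. *Hmgcs1*, the synthase at the entry to the mevalonate pathway, had 3597, 3404 and 3786 in *Bmal1*+/- skin against 3605, 3669 and 3231 in *Bmal1*-/- skin, a range of 1.17-fold. Its means were 3596 ± 191 and 3502 ± 236, with a log2 fold change of -0.039 ± 0.067 (SE; limma adjusted p = 0.90) and an interval of -0.19 to 0.11. *Sqle*, the squalene epoxidase, had 1466, 1373 and 1492 in *Bmal1*+/- skin against 1446, 1405 and 1245 in *Bmal1*-/- skin, with a log2 fold change of -0.082 ± 0.070 (SE; limma adjusted p = 0.78). Of the 13 genes, 10 had a negative log2 fold change and 3 a positive, beside 10599 negative and 12811 positive of all tested probe sets. *Bmal1*-/- replicate 3 was the lowest mouse for 9 of the 13, and without it the median of the group was 0.018 in place of -0.079.

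The 3 genes with a positive log2 fold change were *Pmvk*, *Sc5d* and *Dhcr7*, the last 2 of which encode enzymes at the end of cholesterol synthesis. *Dhcr7*, the 7-dehydrocholesterol reductase of the last step, had 1444, 1451 and 1466 in *Bmal1*+/- skin against 1714, 1744 and 1664 in *Bmal1*-/- skin. Every *Bmal1*-/- mouse lay above every *Bmal1*+/- mouse, and the SD within genotype, 0.026, was at percentile 1.1 of all tested probe sets. Its means were 1454 ± 11.5 and 1707 ± 40.9 (n = 3 mice, SD), with a log2 fold change of 0.23 ± 0.052 (SE; limma adjusted p = 0.19) and an interval of 0.11 to 0.35. Over the 17 other fits its adjusted p ran from 0.18 to 0.44. *Sc5d*, the lathosterol oxidase of the step before it, had 1327, 1749.6 and 1478 in *Bmal1*+/- skin against 1932, 1961 and 1729 in *Bmal1*-/- skin. *Bmal1*+/- replicate 2 lay just above *Bmal1*-/- replicate 3, and it had a log2 fold change of 0.31 ± 0.097 (SE; limma adjusted p = 0.39).

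*Idi1*, the isomerase that makes dimethylallyl diphosphate, had 1784, 1695 and 1930.0 in *Bmal1*+/- skin against 1679, 1610.3 and 1502 in *Bmal1*-/- skin, with every *Bmal1*-/- mouse below every *Bmal1*+/- mouse and a log2 fold change of -0.17 ± 0.068 (SE; limma adjusted p = 0.50). The other *Idi1* probe set gave -0.19. *Fdft1*, the squalene synthase, had 1634, 1498 and 1498 in *Bmal1*+/- skin against 1468, 1418 and 1458 in *Bmal1*-/- skin, again without overlap, and a log2 fold change of -0.090 ± 0.058 (SE; limma adjusted p = 0.69). The second probe set of *Fdft1* had 1578, 1453 and 1498 against 1428, 1312 and 1303, a log2 fold change of -0.16. *Lss*, which cyclises squalene epoxide to lanosterol, had 861, 747 and 726 against 748, 667 and 584, with a log2 fold change of -0.22 ± 0.099 (SE; limma adjusted p = 0.57) and overlap between *Bmal1*+/- replicates 2 and 3 and *Bmal1*-/- replicate 1.

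Log2 fold changes of the other kinases and isoprenoid enzymes were -0.012 for the mevalonate kinase *Mvk*, 0.067 for the phosphomevalonate kinase *Pmvk*, -0.15 for the decarboxylase *Mvd* and -0.044 for the farnesyl diphosphate synthase *Fdps*, with adjusted p of 0.61 to 0.98 from limma. *Nsdhl* and *Hsd17b7* act in the demethylation of sterols. *Nsdhl* had 1218, 1363 and 1207 against 1376, 1250.1 and 986 and a log2 fold change of -0.079. *Hsd17b7* was high only in the male mouse, *Bmal1*+/- replicate 1, with 1767, 1178 and 1082 against 1253, 1156 and 1219.5. Its log2 fold change went from -0.12 to 0.097 without that mouse, and with 1 male mouse sex cannot be told apart from this animal.

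**Figure D5:**
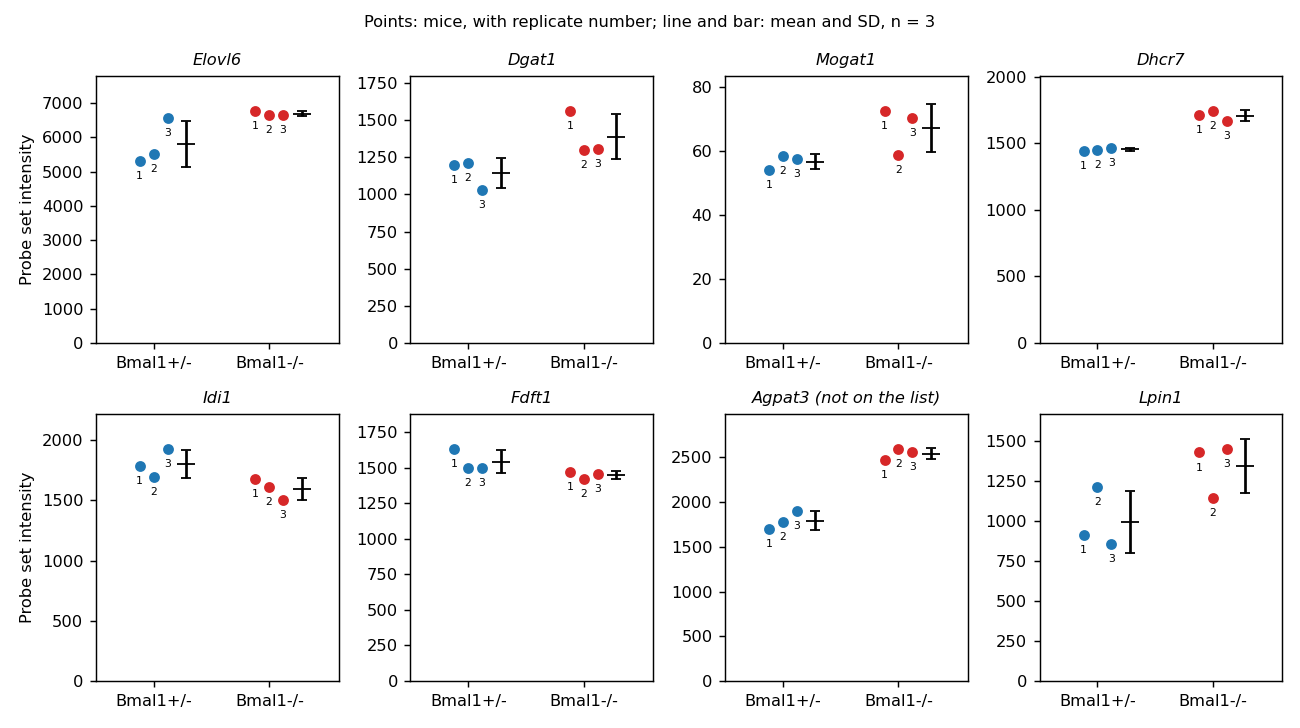
Probe set intensity (vertical axes from 0) in each mouse, numbered by replicate, with the mean and SD (n = 3) of each genotype, for the 6 listed genes whose genotypes did not overlap (*Elovl6*, *Dgat1*, *Mogat1*, *Dhcr7*, *Idi1*, *Fdft1*), for *Lpin1*, whose genotypes overlap, and for *Agpat3*, which is not among the 42. *Agpat3* goes from 1793 to 2543, the only gene shown that passed the test.

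The regulators of these pathways were not called either. *Srebf1*, of the factor that drives fatty acid synthesis, had 811, 887 and 725 in *Bmal1*+/- skin against 1081, 894 and 735 in *Bmal1*-/- skin, in the order of *Fasn* but over a 1.49-fold range, and had a log2 fold change of 0.15 ± 0.13 (SE; limma adjusted p = 0.78). *Srebf2*, of the factor that drives sterol synthesis, had 1514, 1354 and 1485 in *Bmal1*+/- skin against 1506, 1433 and 1257 in *Bmal1*-/- skin, with a log2 fold change of -0.055 ± 0.078 (SE; limma adjusted p = 0.87). *Mlxipl*, of the carbohydrate-responsive factor ChREBP, had 316, 501 and 391 in *Bmal1*+/- skin against 555, 388 and 467 in *Bmal1*-/- skin. It was highest in *Bmal1*-/- replicate 1 and *Bmal1*+/- replicate 2, and lowest in *Bmal1*+/- replicate 1, with a log2 fold change of 0.22 ± 0.16 (SE; limma adjusted p = 0.73). *Insig1*, itself a target of SREBP, had 1925, 2553 and 1588 in *Bmal1*+/- skin against 2253, 2201 and 1741 in *Bmal1*-/- skin, highest in *Bmal1*+/- replicate 2 and lowest in *Bmal1*+/- replicate 3, with a log2 fold change of 0.048 ± 0.16 (SE; limma adjusted p = 0.95). *Insig2*, which in liver is known to be under control of REV-ERBα, the product of *Nr1d1*, had 2571, 2462 and 2719 in *Bmal1*+/- skin against 2534, 2960.3 and 2839 in *Bmal1*-/- skin. The groups overlapped, with a log2 fold change of 0.10 ± 0.070 (SE; limma adjusted p = 0.71) and an interval of -0.056 to 0.26, in mice in which *Nr1d1* itself fell, with a log2 fold change of -3.11 ± 0.15 (SE; limma adjusted p = 2e-05).

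Other genes of the same pathways were taken from 2 lists. Of 31 measured genes of a list of 33 for fatty acid and triglyceride metabolism, 1 was called, higher in *Bmal1*-/- skin, and none was called lower, with a median log2 fold change of -0.022. This gene was *Agpat3*, an acyltransferase that makes phosphatidic acid and phospholipids, with 1698, 1776 and 1905 in *Bmal1*+/- skin against 2472, 2598 and 2559 in *Bmal1*-/- skin. Its genotypes lay far apart relative to their spread, 1793 ± 105 and 2543 ± 64.3 (n = 3 mice, SD), with a log2 fold change of 0.50 ± 0.060 (SE; limma adjusted p = 0.0081), and its limma or Cyber-T type adjusted p was 0.00032 to 0.081 over the 17 other fits, under 0.05 in 16 of them and at the upper end without the intensity trend. Its relative *Agpat5* had 1259, 1297 and 1246 against 1485, 1438 and 1469, with a log2 fold change of 0.21 ± 0.053 (SE; limma adjusted p = 0.26). *Gpat3*, an acyltransferase of adipocytes, had 286, 402 and 202 against 688, 337 and 356, with *Bmal1*-/- replicate 1 again highest. *Scd3*, the desaturase of sebocytes, had 3759, 3461 and 4176 against 2858, 4279 and 3733 and a log2 fold change of -0.083.

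Of a list of 22 sterol genes, 13 were measured with a probe set of their own, 9 were not analysed here, and none was called, with a median log2 fold change of -0.078. *Msmo1*, the methylsterol monooxygenase, had 6946, 5497 and 6297 in *Bmal1*+/- skin against 5114, 5166 and 4759 in *Bmal1*-/- skin, every *Bmal1*-/- mouse below every *Bmal1*+/- mouse, and a log2 fold change of -0.31 ± 0.083 (SE; limma adjusted p = 0.28). In 2 of the 13 genes the genotypes did not overlap, both lower in *Bmal1*-/- skin, against 7.68% of all tested probe sets. *Nr1h3*, which encodes the sterol-sensing receptor LXRα, had 309, 327 and 273 against 362, 313 and 370.5, with a log2 fold change of 0.19 ± 0.094 (SE; limma adjusted p = 0.61).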

How the data were processed

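Dorsal skin RNA of 6 mice (3 *Bmal1*+/-, 3 *Bmal1*-/-, grouped by sample title) was hybridised to 1 array each. The authors deposited linear probe set intensity values, for which the submitters' notes name PLIER 2.0 and Expression Console 1.1. Background correction, normalization and build are not stated in these sources, and could change the spread between mice.

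On log2(intensity + 16), which understates changes of dim genes, 23410 of 35557 probe sets (those with a gene symbol in the platform annotation, 21789 with 1 and 1621 with several) were tested by limma 3.58.1 (R 4.3.3, eBayes with trend), two-sided, with Benjamini-Hochberg adjustment over all and a threshold of 0.05. An exact permutation test of 3 mice against 3 cannot go below 0.1. The procedure was also run on simulated arrays, in which noise was drawn for each probe set by itself. Such arrays do not cover genes that move together over mice, as the fatty acid synthesis genes did. The 17 other fits changed the offset (1 or 64), normalization, probe sets (mean intensity of at least 64, or all), variance model, test (after Cyber-T, the study's, with a window of 101 and a prior weight of 10), replicate block or sex term, or left out 1 array.

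The genes, lists and tests were chosen with earlier results of these data known. All 42 genes are named, with single mice given for those without overlap, at an unadjusted p under 0.05 or ranging at least 1.5-fold, and for 16 central genes. Other lists are named by their called genes, or else by those of largest change. *Agpat5*, *Scd3*, *Gpat3*, *Retn*, *Lep*, *Adipoq*, *Plin1*, *Car3*, *Cox8b*, *Ucp1*, *Cidea*, *Acadm*, *Pparg* and the striated muscle markers named were chosen after their values were seen. Promoters are RefSeq's, in GRCm38.p6.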

Additional observations from a re-analysis of the deposited data

How the results depend on the processing

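No listed gene was called at an adjusted p under 0.05 in any of the 17 other fits or with the second probe sets. In the main fit none was called at an adjusted p under 0.10 either. The counts over all probe sets, 31 lower and 23 higher, became 177 and 96 with the Cyber-T type test, 19 and 15 over all rows, 16 and 11 without the intensity trend, 93 and 59 at an unadjusted p under 0.001, and 55 and 35 at an adjusted p under 0.10. With each array left out in turn, 22 to 34 fell and 13 to 23 rose, with 13 higher without *Bmal1*-/- replicate 3 and 15 without *Bmal1*-/- replicate 1 or *Bmal1*+/- replicate 2. Group medians were then -0.096 to 0.51 for acetyl-CoA supply and fatty acid synthesis, -0.097 to 0.067 for elongases and desaturases, 0.14 to 0.32 for triglyceride assembly, -0.12 to 0.018 for the sterol pathway and 0.010 to 0.21 for the regulators. The signs of 19 of the 42 genes held in every fit, and those of 23 turned in at least 1. Leaving out 1 array gave log2 fold changes of -0.42 to 0.39 for *Slc25a1*, -0.0075 to 0.71 for *Acly*, -0.42 to 0.26 for *Acss2*, -0.096 to 0.63 for *Acaca*, -0.11 to 0.062 for *Acacb*, -0.096 to 0.64 for *Fasn*, -0.29 to 0.34 for *Me1*, -0.064 to 0.26 for *Scd2*, -0.14 to 0.070 for *Fads1*, -0.20 to 0.067 for *Fads2*, -0.21 to 0.031 for *Elovl3*, -0.039 to 0.044 for *Elovl4*, -0.075 to 0.21 for *Gpam*, -0.063 to 0.56 for *Agpat2*, -0.014 to 0.28 for *Dgat2*, -0.077 to 0.018 for *Hmgcs1*, -0.043 to 0.042 for *Mvk*, -0.076 to 0.20 for *Pmvk*, -0.14 to 0.052 for *Fdps*, -0.18 to 0.056 for *Nsdhl*, -0.25 to 0.097 for *Hsd17b7*, -0.11 to 0.019 for *Srebf2* and -0.11 to 0.23 for *Insig1*. With quantile normalization *Elovl4* had 0.026 and *Mvk* 0.0030. With a sex term *Fads1* had 0.027, *Elovl4* 0.0034 and *Hsd17b7* 0.097. As *Bmal1*+/- replicate 1 was the only male, this term gave the same fold changes as leaving that mouse out. It is therefore not a separate check. Apart from the arrays left out, the cause was not tested.

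Replicate numbers are shared by the genotypes, but deviations of mice of the same number from their genotype means correlated at 0.0778, -0.346 and 0.0559, so they were not taken as pairs. With the replicate number as a block, 34 probe sets were lower and 20 higher, and no listed gene was called. Precision is limited by 3 arrays a genotype.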

Other observations

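Genes that burn or release fatty acids were taken from a list of 18, of which 16 were measured. None was called. In *Bmal1*-/- skin 12 had a positive and 4 a negative log2 fold change, beside 12811 positive and 10599 negative of all tested probe sets. The median was 0.16, beside 0.014 over all tested probe sets. The 5 brown adipocyte markers had a median of 0.21 and summed to 2409, 3194 and 2925 in *Bmal1*+/- skin against 3210.4, 3150.2 and 4069 in *Bmal1*-/- skin, and both lists were highest in *Bmal1*-/- replicate 3. *Cox8b*, a subunit of cytochrome oxidase and the brightest of these markers, had 1148, 1816 and 1423 against 2058, 1720.2 and 2598. Its log2 fold change was 0.54 ± 0.17 (SE; limma adjusted p = 0.40), with a limma or Cyber-T type adjusted p of 0.042 to 0.74 over the 17 other fits. *Ucp1* was dim, at a mean of 62.3, and *Cidea* had a log2 fold change of -0.16, the only negative 1 of the 5. The mice stood in the same order for *Cox8b* as for the muscle markers *Ckm*, *Tnnt3*, *Myh4* and *Des*, but not *Acta1*, *Mylpf* and *Myh1*. The part of brown fat or muscle in the levels of the oxidation genes was not tested. In 4 of the 16 genes every *Bmal1*-/- mouse lay above every *Bmal1*+/- mouse, and in 0 below, against 6.99% and 7.68% of all tested probe sets. *Hadhb* and *Acadm*, enzymes of mitochondrial beta-oxidation, were among these 4. *Hadhb* had 3079.8, 3394 and 3717 against 3749, 4246 and 5462, with a log2 fold change of 0.39 ± 0.12 (SE; limma adjusted p = 0.40), and *Acadm* had 2465, 2974 and 2799.5 against 3460.2, 3088 and 3845, with a log2 fold change of 0.33 ± 0.092 (SE; limma adjusted p = 0.30). In 0 of the 16 genes did the mice stand in the order of the fatty acid synthase, a share near the 2.09% of all probe sets. *Pdk4*, the kinase that shuts off pyruvate dehydrogenase when fat is burned, had 355, 925 and 1082 in *Bmal1*+/- skin against 395, 1433 and 3548 in *Bmal1*-/- skin, a range of 10.0-fold with *Bmal1*-/- replicate 3 highest and *Bmal1*-/- replicate 1 low. *Pparg*, the receptor that drives adipocyte differentiation, had 1147, 1270.2 and 1155 against 1454, 1379 and 1437, with a log2 fold change of 0.26 ± 0.062 (SE; limma adjusted p = 0.22).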
